A study of Mus musculus with 4 samples.

Results

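Igf1, Vegfa, Vegfb, Pdgfa, Pdgfb, Pdgfc, Hbegf, Gas6 and Osm encode secreted growth, angiogenic and neurotrophic factors, and all 9 were taken by symbol from the 32285 genes counted in mouse hindpaw leukocytes. The 9 genes were followed across 4 single-cell RNA-seq libraries of CD45+ cells sorted from digested hindpaws of male mice. WT denotes Lepr WT/WT littermates, and DB denotes Lepr db/db mice on C57BLKS/J, whose leptin receptor does not function and which develop obesity and high blood glucose. Each genotype was collected at 12 and at 21 weeks of age, which the labels call young and aged. Libraries are named by age and genotype (12-week-WT and so on), and wherever 4 values stand in a row they run WT then DB at 12 weeks, followed by WT then DB at 21 weeks. Each library pooled 2 to 3 animals, and there was 1 library per condition, so differences between conditions had no replicate check.

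The members act on neighbouring cells. Igf1 binds the Igf1r tyrosine kinase and supports neurons, muscle and epithelium. Vegfa drives endothelial growth through Kdr and Flt1, while Vegfb binds Flt1 and the neuropilin Nrp1. The Pdgf chains signal through Pdgfra and Pdgfrb on fibroblasts, pericytes and smooth muscle, Hbegf through Egfr and Erbb4, Gas6 through the Tam receptors Axl, Mertk and Tyro3, and Osm through Osmr or Lifr together with Il6st. Skin macrophages are known as a source of several of these factors in repair and in the support of nerve endings.

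A barcode was kept at 200 or more genes and at most 10% mitochondrial UMIs, which left 27800 of 30793 barcodes, 5271 to 8707 per library. The 4 libraries held 47851794 to 69626521 UMIs, and kept barcodes had medians of 5355 to 8000.5 UMIs, lowest in 21-week-DB. Macrophages, gated on C1qa, C1qb, C1qc and Pf4 with Csf1r or Adgre1, numbered 1637, 1917, 1540 and 1387, and their 6 marker genes summed to 9970 to 12142 CPM in these barcodes, where CPM is the UMIs of a gene per 1000000 UMIs of the summed barcodes. The 21-week-WT and 21-week-DB libraries shared 154 barcode sequences and the other pairs 6 to 41, and 493 kept barcodes, 46 of them macrophages, stood in more than 1 library. The macrophage comparisons were therefore also run without those shared barcodes, which changed no count of members called or past 1.5-fold, and the 21-week DB/WT log2 ratio of Vegfb was 0.63 with and without them.

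All 9 symbols had UMIs in kept barcodes of every library. On GRCm38 (the mm10 sequence of the files' reference) and GENCODE M21, Igf1 lies at chr10:87858265-87937042 (+), Gas6 at chr8:13465374-13494490 (-), Pdgfc at chr3:81036416-81214040 (+), Pdgfb at chr15:79995874-80014977 (-), Pdgfa at chr5:138976014-138997370 (-), Vegfb at chr19:6982473-6987651 (-), Vegfa at chr17:46016993-46032369 (-) and Osm at chr11:4236420-4241026 (+). Igf1, Pdgfa, Pdgfb, Pdgfc and Gas6 each overlap 1 gene annotated on the opposite strand (for Gas6 the protein-coding Tmem255b), and the strand setting of the counting is not given in the sources used here.

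Igf1, Gas6 and Pdgfc were the 3 members with the largest share of their UMIs in macrophages. The 250 bases before the RefSeq start site (GRCm38.p6) are shown for them and for Vegfb and Vegfa. Among the members, Vegfb and Vegfa had the differences between libraries that departed most from those of the first 3. RefSeq start windows were matched for 6 of the 9 members. Motifs were searched only in the 250 bases before each start, and capitals mark matches on either strand to ACGTG (the hypoxia response element core), TGANTCA (AP-1) or GAGGAA (the PU.1 core).
Igf1, chr10:87860861-87861110 (+): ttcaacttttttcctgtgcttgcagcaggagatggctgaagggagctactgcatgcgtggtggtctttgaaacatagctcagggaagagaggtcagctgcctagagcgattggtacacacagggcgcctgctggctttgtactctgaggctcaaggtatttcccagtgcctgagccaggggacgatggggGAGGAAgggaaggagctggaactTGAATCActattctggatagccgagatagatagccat
Gas6, chr8:13494536-13494785 (-): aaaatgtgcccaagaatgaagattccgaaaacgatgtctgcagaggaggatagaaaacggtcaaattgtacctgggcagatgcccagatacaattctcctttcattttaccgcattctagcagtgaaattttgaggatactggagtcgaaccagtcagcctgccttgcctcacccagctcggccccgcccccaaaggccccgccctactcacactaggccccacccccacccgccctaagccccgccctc
Pdgfc, chr3:81036166-81036415 (+): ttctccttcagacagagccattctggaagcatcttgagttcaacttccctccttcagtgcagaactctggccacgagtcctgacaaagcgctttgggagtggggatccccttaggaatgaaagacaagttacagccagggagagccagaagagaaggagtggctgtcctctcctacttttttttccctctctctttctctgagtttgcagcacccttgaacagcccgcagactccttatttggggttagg
Vegfb, chr19:6987652-6987901 (-): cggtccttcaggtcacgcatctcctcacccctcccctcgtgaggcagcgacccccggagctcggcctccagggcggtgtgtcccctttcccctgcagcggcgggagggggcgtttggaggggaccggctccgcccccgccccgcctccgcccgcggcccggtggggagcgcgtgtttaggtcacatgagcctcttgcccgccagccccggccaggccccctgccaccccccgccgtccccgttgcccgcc
Vegfa, chr17:46032378-46032627 (-): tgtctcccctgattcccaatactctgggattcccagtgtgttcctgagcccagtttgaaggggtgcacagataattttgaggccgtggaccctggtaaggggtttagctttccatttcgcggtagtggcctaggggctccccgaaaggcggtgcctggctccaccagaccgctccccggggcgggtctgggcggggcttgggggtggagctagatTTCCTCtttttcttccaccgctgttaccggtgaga
The Igf1 window held 1 AP-1 and 1 PU.1 match, the Vegfa window 1 PU.1 match on the opposite strand, and the Gas6, Pdgfc and Vegfb windows none of the 3 motifs. A match is a description of the letters only. ACGTG was present in 16.6%, TGANTCA in 6.75% and GAGGAA in 23.3% of all 32851 windows of this length, and the other Vegfa window held 1 ACGTG match. That window and the printed Igf1 window both lie at starts inside the gene bounds given above.

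Igf1, Gas6 and Pdgfc were macrophage transcripts in this preparation. Macrophages held 24.5% to 38.5% of all UMIs of kept barcodes, but 85.1% to 87.8% of the Igf1 UMIs, 86.9% to 91.2% of the Gas6 UMIs and 80.9% to 88.4% of the Pdgfc UMIs. Igf1 stood at 326, 185, 234 and 149 CPM in macrophages. The next leukocyte class, monocytes, had 1.33 to 8.76 CPM, so the classes did not overlap. Gas6, the bridging ligand of the Tam receptors, reached 468, 299, 359 and 243 CPM in macrophages of the same 4 libraries, while no other leukocyte class averaged above 7.26 CPM (cDC2). Pdgfc, a ligand of Pdgfra, had 73.2, 44.6, 65.9 and 31.1 CPM in macrophages. Mast cells followed for Pdgfc with 5.24 to 31.9 CPM from 46 UMIs in all, and their highest library overlapped the lowest macrophage value.

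Summed counts of each leukocyte class and library were compared by the edgeR quasi-likelihood test, with a term for each library, macrophages against the mean of the other 13 classes on the log2 scale. The macrophage level was higher by 6.28 for Igf1 (SE 0.15, edgeR adjusted p = 5.62e-37), by 6.17 for Gas6 (SE 0.11, adjusted p = 1.39e-41) and by 5.52 for Pdgfc (SE 0.19, adjusted p = 5.17e-30). In all, 7 of 9 members were called higher in macrophages and 1 lower (Vegfa), where 40.1% of the 12253 genes tested were called higher and 19.6% lower. DESeq2 called 4454 of these genes higher and 3835 lower, where edgeR called 4909 and 2406. The median difference was 2.38 over the members and 0.16 over all genes tested. Each of these member calls was also made in every alternative fit listed for this comparison, and Osm was the 1 member called in no direction.

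The remaining PDGF chains and Vegfb were spread more widely. Pdgfb, which recruits pericytes, had 129, 79.8, 82.5 and 65.8 CPM in macrophages. cDC1 (53.9 to 68.3 CPM in 3 libraries), cDC2 (29.8 to 84.1 CPM) and migratory dendritic cells (27.1 to 63.2 CPM) came next, and each neighbour in this order overlapped. Macrophages were higher than the mean of the other classes by 2.38 (SE 0.19, edgeR adjusted p = 8.93e-16) on the log2 scale. Pdgfa had 36.7, 22.2, 36.6 and 21.1 CPM in macrophages, below the means of mast cells (51.9 ± 17.3 CPM, SD, n = 4 libraries) and NK cells (42.9 ± 18.3 CPM), with overlapping ranges. Vegfb was low and even, at 20.2, 11.9, 13.7 and 21.2 CPM in macrophages, and at a mean of 20.4 CPM in mast cells and 17.8 CPM in epidermal T cells, again overlapping. Neutrophils had 0 UMIs of Vegfb in all 4 libraries, and a count of 0 still allows 3 UMIs, which is 5.72 CPM in 12-week-WT and 26.1 CPM in the shallowest library, 21-week-DB. In 21-week-DB a neutrophil level like that of macrophages was thus not detectable. Against the mean of all other classes macrophages were nevertheless higher for Pdgfa by 2.48 (SE 0.21, edgeR adjusted p = 4.41e-14) and for Vegfb by 1.51 (SE 0.23, adjusted p = 1.52e-07), a mean taken on the log2 scale that includes classes near 0.

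Vegfa and Osm were highest outside macrophages. Vegfa averaged 318 CPM in Langerhans cells (the 2 libraries with 20 or more such barcodes, both DB). It averaged 265 ± 103 CPM in neutrophils (SD, n = 4 libraries) and 212 ± 99.6 CPM in mast cells. In libraries with 20 or more barcodes these 3 classes overlapped each other but not epidermal T cells, the next class (57.9 to 97.8 CPM). The 14 Langerhans barcodes of 12-week-WT held 0.606% of its Vegfa UMIs and 0.408% of all its UMIs. For the 13 of 21-week-WT these shares were 3.82% and 0.322%. Macrophages had 6.02, 4.39, 35.3 and 10.6 CPM and were lower than the mean of the other classes by 2.06 on the log2 scale (log2 difference -2.06, SE 0.32, edgeR adjusted p = 1.89e-07). Osm, an IL-6 family cytokine, had 305 to 1197 CPM in neutrophils, 126 to 313 CPM in mast cells and 102 to 171 CPM in monocytes. Basophils, counted in only 8 to 16 barcodes per library and so not in the test, had 996 to 2447 CPM of Osm and 67 to 153 Osm UMIs per library. Osm in macrophages was 28.8, 13.6, 55.4 and 28.4 CPM, and the difference from the other classes was not called (log2 difference -0.21, SE 0.30, edgeR adjusted p = 0.592). Hbegf, the heparin-binding ligand of Egfr, whose gene spans chr18:36504927-36515805 (-), was low in every leukocyte class, with 9.90 to 24.6 CPM in dermal γδ T cells and 13.8, 7.34, 22.1 and 16.5 CPM in macrophages. Macrophages were higher for Hbegf than the mean of the other classes by 1.43 (SE 0.24, edgeR adjusted p = 1.33e-06). The few sorted barcodes with stromal or keratinocyte markers were counted as well. In the 2 libraries with 20 or more of them, both of 12 weeks, stromal barcodes had 632 to 1238 CPM of Igf1 and keratinocyte barcodes 181 to 212 CPM of Hbegf, above macrophages, and stromal Gas6 (163 to 599 CPM) overlapped that of macrophages.

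**Figure D1:**
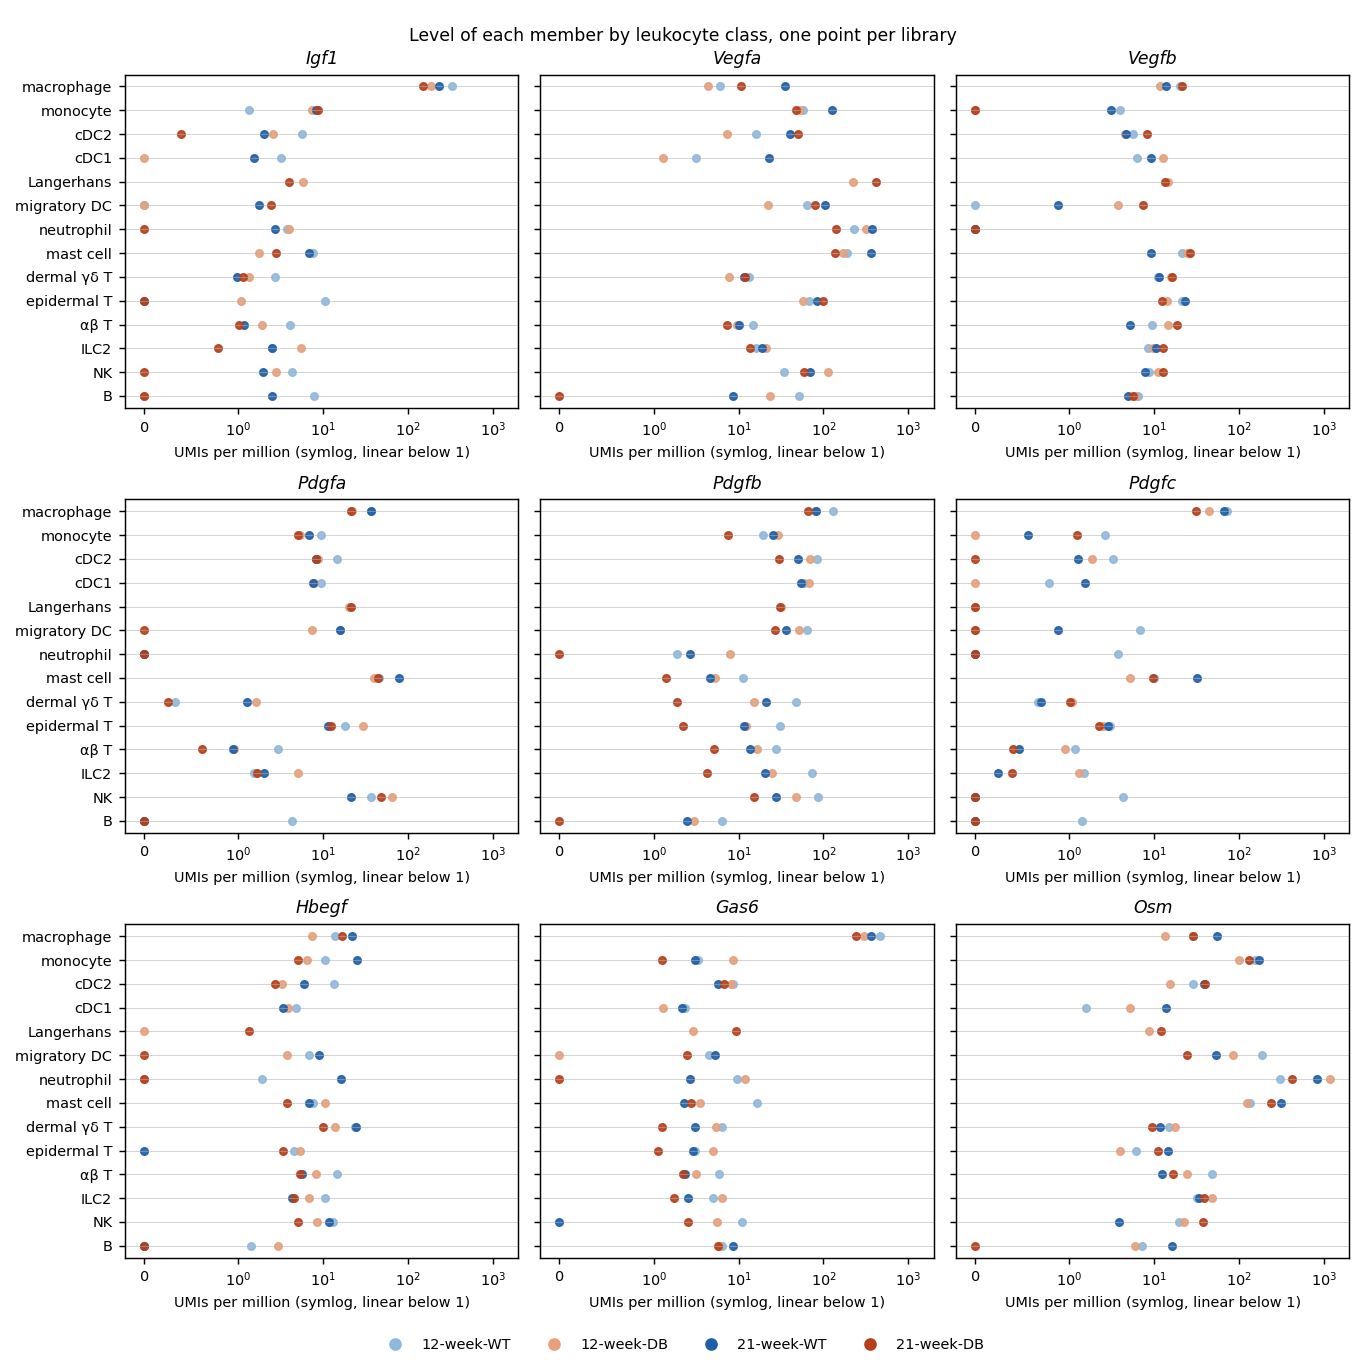
CPM of each member (horizontal axis, linear below 1 and logarithmic above) in each leukocyte class (rows), with 1 point per library and class of 20 or more barcodes. Igf1 and Gas6 in macrophages stand apart from every other class, while Vegfa and Osm are highest in neutrophils, mast cells, monocytes or Langerhans cells.

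The share of macrophages with at least 1 UMI followed the same pattern. Gas6 was detected in 79.1%, 58.0%, 68.6% and 64.7% of macrophages, and in 1.41% to 4.05% of αβ T cells, a class that should lack it, at median depths of 8874 to 10424 and 5418 to 5746 UMIs. Igf1 was detected in 71.9%, 44.4%, 62.5% and 47.9% of macrophages and in 0.640% to 2.83% of αβ T cells. With every barcode thinned to 2000 UMIs, which left out 40, 30, 31 and 26 macrophages as shallower, the Igf1 shares were 41.6%, 22.9%, 33.1% and 22.9%, so both DB libraries remained below both WT libraries. Vegfa was detected in 2.14%, 1.98%, 9.03% and 2.16% of macrophages, against 3.84% to 6.07% of αβ T cells. Except in 21-week-WT these macrophage shares were below those of αβ T cells, while single macrophages held up to 20, 23, 40 and 18 Vegfa UMIs. Macrophages with Lyve1 and low H2-Ab1, a subset defined below, had Vegfa shares of 0.673%, 1.04%, 3.48% and 1.42%. These lay under the αβ T shares though median depth was higher, so the αβ T share does not measure background for Vegfa. How much of the macrophage share is background is not known. Hbegf was detected in 6.05%, 3.96%, 8.83% and 5.26% of macrophages and in 4.45%, 3.76%, 2.72% and 1.66% of αβ T cells, so these classes were close at 12 weeks. Osm was detected in 13.2%, 7.41%, 19.8% and 11.9% of macrophages and in 12.6%, 11.1%, 7.05% and 7.04% of αβ T cells, below them in 12-week-DB, though αβ T cells can transcribe Osm themselves.

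Detection was uneven between members. The 10 macrophages with the most UMIs held 38.4% to 82.3% of the Vegfa UMIs of a library, 28.7% to 50.2% of the Hbegf UMIs and 22.3% to 31.7% of the Osm UMIs. For Igf1 the same share was 5.36% to 6.95% and for Gas6 3.24% to 6.04%. The Vegfa sum of 21-week-DB macrophages rested on 30 barcodes and 141 UMIs. Intervals below cover counting error only and do not cover this spread between cells.

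Of the 19 receptor genes that were listed, 11 reached a mean of 20 CPM in at least 1 leukocyte class and were tested. Among them 8 were called higher in macrophages and 1 lower, beside the 40.1% and 19.6% of all genes given above. Receptors for Gas6 were macrophage genes: Mertk averaged 50.8 ± 19.6 CPM (SD, n = 4 libraries) and was higher by 7.17 (SE 0.22, edgeR adjusted p = 3.9e-28), and Axl averaged 50.9 ± 31.4 CPM and was higher by 2.56 (SE 0.22, adjusted p = 3.13e-14). Lifr (140 ± 63.8 CPM) and Il6st (69.3 CPM in macrophages, 95.9 CPM in cDC2) were higher by 4.07 and 1.19 (edgeR adjusted p = 2.46e-29 and 7.81e-10). Osmr, the other chain listed for Osm, averaged at most 0.673 CPM in any leukocyte class, so response of macrophages to Osm cannot be read from these levels. Egfr (25.7 ± 5.08 CPM), Flt1, Nrp1 and Nrp2 were also higher than the mean of the other classes, by 4.88, 2.83, 2.79 and 3.64 on the log2 scale. Macrophages were not the highest class for the last 3. Flt1 averaged 46.2 CPM in macrophages and 88.1 CPM in migratory dendritic cells, and Nrp2 154 and 232 CPM. Nrp1 averaged 163 CPM in macrophages and 226 CPM in mast cells. Igf1r, highest in mast cells at 385 ± 135 CPM, was the 1 receptor called lower (log2 difference -0.40, SE 0.16, edgeR adjusted p = 0.0299). Insr, the insulin receptor (27.4 CPM in macrophages), was called in no direction (adjusted p = 0.319), nor was Pdgfrb (adjusted p = 0.946), which had 72.5 CPM in epidermal T cells and 0.473 CPM in macrophages. The 8 other receptors, Pdgfra, Kdr and Osmr among them, stayed below 20 CPM.

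Of 23 other factor genes, 5 reached 20 CPM in a class. Pros1, the second Tam ligand, was a macrophage gene (124 ± 38.2 CPM, higher by 3.06, SE 0.13, edgeR adjusted p = 5.01e-26), and Hgf was higher by 3.65 (adjusted p = 8.3e-15) at 13.9 CPM. The highest mean of Hgf was in neutrophils (23.2 ± 18.3 CPM). Lif was lower by 1.35 (log2 difference -1.35, adjusted p = 0.00046) and highest in ILC2 at 83.5 CPM. Placental growth factor, Pgf, averaged 583 CPM in Langerhans cells of the DB libraries, and Areg, an Egfr ligand, 942 CPM in epidermal T cells. Neither was called in macrophages (edgeR adjusted p = 0.363 and 0.092). With Fgf2, which stayed below 20 CPM, 3 of the 9 factor genes tested were called higher and 1 lower, which is no larger a share than the 40.1% and 19.6% of all genes. The other 18 factor genes, the neurotrophic factors Bdnf, Ntf3 and Gdnf included, stayed below 20 CPM in every class.

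Macrophages were split by 1 or more Lyve1 UMIs and by H2-Ab1 (log-normalized level above 2) into 4 subsets. Lyve1 marks perivascular tissue macrophages, and H2-Ab1 encodes an MHC class II chain. The Lyve1+ MHCII-low subset made up 54.4%, 45.1%, 42.9% and 66.0% of macrophages. The Lyve1+ MHCII-high subset was 12.8%, 11.1%, 17.5% and 1.37%, the last from 19 barcodes.

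Gas6, Pdgfc and Vegfb were highest in Lyve1+ MHCII-low macrophages. Gas6 had 682, 523, 619 and 307 CPM there, against 139, 44.9, 76.3 and 37.3 CPM in Lyve1- MHCII-high macrophages, and these 2 subsets did not overlap. Between Lyve1+ and Lyve1- macrophages, fitted with MHCII state and library as terms over 16 sums, Gas6 was higher by 1.52 (SE 0.16, edgeR adjusted p = 1.24e-05) and higher in 8 of 8 subset pairs. The pairs are 2 per library and so are not 8 independent units, and the 4 libraries that serve as replicates are of different conditions. Pdgfc had 99.3, 69.7, 108 and 35.8 CPM in the Lyve1+ MHCII-low subset and 28.8, 13.3, 9.40 and 12.4 CPM in the Lyve1- MHCII-high subset. It was higher in Lyve1+ macrophages by 1.104 (SE 0.19, adjusted p = 0.000591), also in 8 of 8 pairs. Both were lower in MHCII-high than in MHCII-low macrophages (Gas6 -1.29, SE 0.16, edgeR adjusted p = 2.3e-05; Pdgfc -1.02, SE 0.19, adjusted p = 0.000853). Vegfb was lower in MHCII-high macrophages (log2 difference -0.80, SE 0.14, edgeR adjusted p = 0.000489, 8 of 8 pairs), and its Lyve1 difference of 0.38 missed the threshold (adjusted p = 0.0654).

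Osm, Vegfa, Hbegf and Pdgfb went the other way along Lyve1. Osm, at 50.05, 24.6, 109 and 55.1 CPM in Lyve1- MHCII-high and 17.9, 6.55, 19.7 and 17.3 CPM in Lyve1+ MHCII-low macrophages, was lower in Lyve1+ macrophages by 1.23 (log2 difference -1.23, SE 0.15, edgeR adjusted p = 4.16e-05, 8 of 8 pairs) and higher in MHCII-high ones by 0.81 (SE 0.16, adjusted p = 0.00111). Vegfa was at 0.662 to 3.95 CPM in Lyve1+ MHCII-low macrophages and at 18.7, 10.7, 61.9 and 66.0 CPM in the Lyve1- MHCII-high subset. Its differences were -1.85 for Lyve1+ (SE 0.47, edgeR adjusted p = 0.0121) and 2.07 for MHCII-high (SE 0.46, adjusted p = 0.00336). Pdgfb differed by -0.57 for Lyve1+ (SE 0.11, adjusted p = 0.00144) and Hbegf by -1.09 (SE 0.31, adjusted p = 0.0223). Without 21-week-WT the Lyve1 calls of Vegfa and Hbegf were lost (adjusted p = 0.0745 and 0.194), and without 21-week-DB that of Hbegf (adjusted p = 0.0523). In the Lyve1- MHCII-low subset of 21-week-WT, 40 of 77 Vegfa UMIs came from 1 barcode.

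Igf1 and Pdgfa were called in neither direction across the subsets. Igf1 averaged 189 to 245 CPM in the 4 subsets, with a Lyve1 difference of 0.09 (SE 0.11, edgeR adjusted p = 0.639) and an MHCII difference of -0.15 (SE 0.11, adjusted p = 0.39). With unintegrated clusters in place of gates both Igf1 differences were called (0.56 and -0.55, adjusted p = 0.00644 and 0.00581). In all, 2 members were called higher and 4 lower in Lyve1+ macrophages, where 8.05% of the 11024 genes tested were higher and 8.34% lower. MHCII-high macrophages had 2 members higher and 3 lower, beside 11.6% and 10.2% of genes. Without the library block, no member was called lower in Lyve1+ or higher in MHCII-high macrophages.

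**Figure D2:**
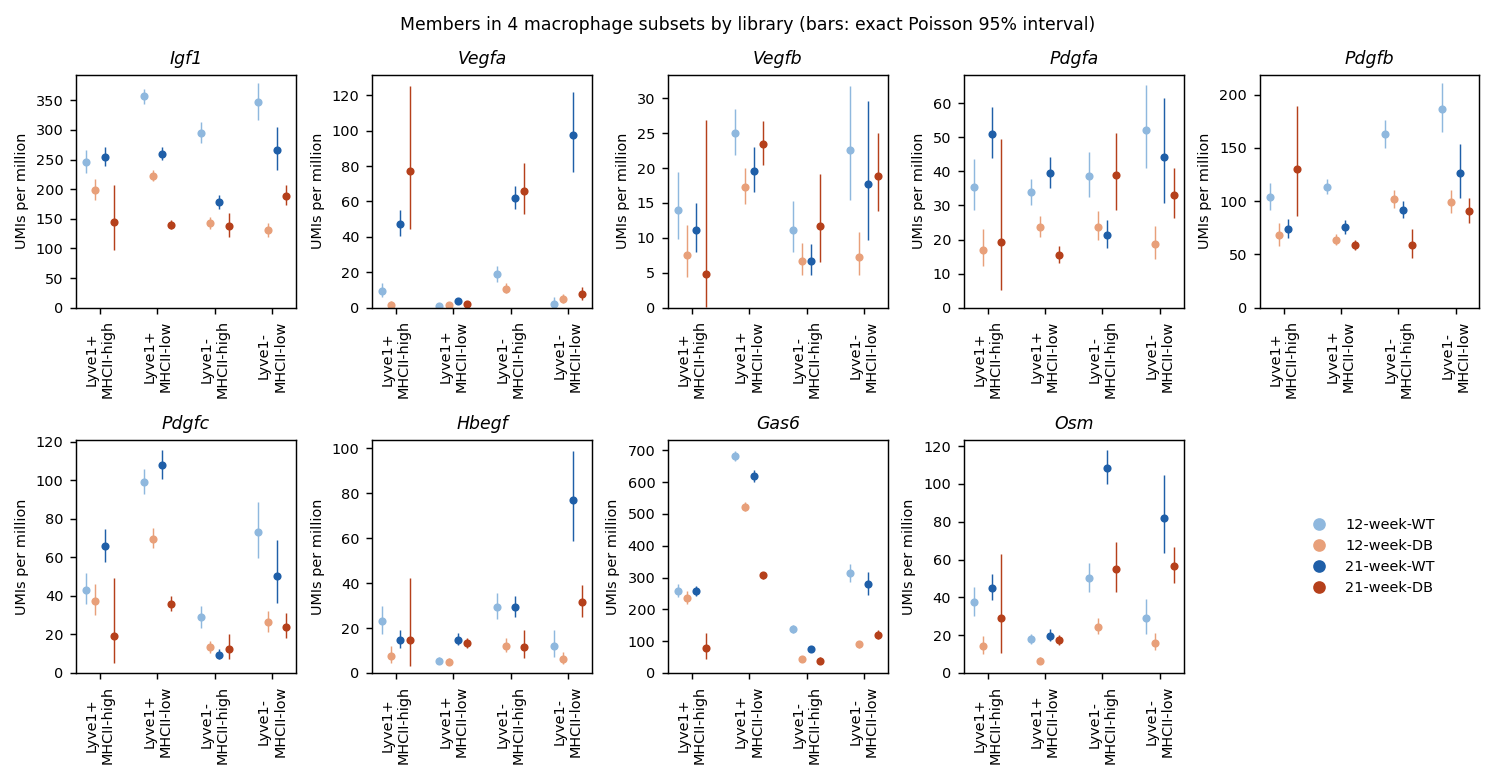
CPM of each member (vertical axis, linear, from 0) in the 4 macrophage subsets (horizontal axis), with 1 point per library and bars for the exact Poisson 95% interval. Gas6, Pdgfc and Vegfb have their highest point of each library in the Lyve1+ MHCII-low subset, Igf1 subset means lie between 189 and 245 CPM, and the bars of 21-week-DB Lyve1+ MHCII-high macrophages (19 barcodes) are the widest for every member but Hbegf.

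A second split, by at least 1 UMI of Ccl2 or Cxcl1, separated Vegfa, Hbegf and Osm. Osm was at 40.5, 28.4, 94.5 and 51.9 CPM in macrophages with Ccl2 or Cxcl1 and at 16.5, 6.60, 23.7 and 10.96 CPM in those without. Hbegf was at 19.9, 15.5, 42.7 and 27.5 CPM against 7.38, 3.504, 5.38 and 8.35 CPM. In each library Osm, Hbegf and Vegfa were higher with Ccl2 or Cxcl1, while Gas6 and Pdgfc were lower. Macrophages with a UMI of Vsig4, a complement receptor gene of resident macrophages, had more Gas6, Pdgfc and Vegfb in every library than those without. These splits were not tested.

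The comparison of genotypes asked how the members differed between DB and WT macrophages at each age. At 12 weeks all 9 members were lower in DB, 8 of them by 1.5-fold or more, with the exact 95% interval of each log2 ratio below 0. Igf1 was at 326 CPM in WT and 185 CPM in DB (5410 and 3951 UMIs), a log2 DB/WT ratio of -0.82 (95% interval -0.88 to -0.76). Gas6 (468 and 299 CPM) had a ratio of -0.65 (-0.70 to -0.60), Pdgfb (129 and 79.8 CPM) of -0.69 (-0.78 to -0.60), Pdgfc (73.2 and 44.6 CPM) of -0.71 (-0.84 to -0.59) and Pdgfa (36.7 and 22.2 CPM) of -0.73 (-0.90 to -0.55). Vegfb (20.2 and 11.9 CPM) gave -0.76 (-1.005 to -0.52) and Osm (28.8 and 13.6 CPM) -1.09 (-1.30 to -0.87). Hbegf (13.8 and 7.34 CPM) gave -0.91 (-1.21 to -0.61) and Vegfa (6.02 and 4.39 CPM) -0.45 (-0.88 to -0.03). Among 6522 genes with 50 or more UMIs over both libraries and 20 CPM in the higher one, 5.61% were lower in DB by 1.5-fold or more and 1.86% higher, and the median log2 ratio was 0.02. Of the members, Vegfa and Hbegf were under that floor, and the interval lay below 0 in 27.3% of those genes. With the αβ T cell level of the same library subtracted, only Igf1, Gas6, Pdgfa, Pdgfb and Pdgfc kept a level above 0 in both libraries, and all 5 were lower by 1.5-fold or more. The αβ T level can include what those cells transcribe themselves. A gene lost or reversed by the subtraction is thus not shown to be background.

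At 21 weeks 8 of 9 members were lower in DB macrophages and Vegfb was higher. Vegfa was at 35.3 CPM in WT and 10.6 CPM in DB (619 and 141 UMIs), a log2 ratio of -1.74 (95% interval -2.02 to -1.48), Pdgfc at 65.9 and 31.1 CPM (-1.08, -1.25 to -0.92) and Osm at 55.4 and 28.4 CPM (-0.96, -1.14 to -0.79). Pdgfa (36.6 and 21.1 CPM, -0.79, -1.001 to -0.59) and Igf1 (234 and 149 CPM, -0.65, -0.73 to -0.58) were lower by more than 1.5-fold as well, 5 members in all. Gas6 (359 and 243 CPM, -0.57), Hbegf (22.1 and 16.5 CPM, -0.42) and Pdgfb (82.5 and 65.8 CPM, -0.33) were lower by less. Vegfb was at 13.7 CPM in WT and 21.2 CPM in DB (240 and 283 UMIs), a log2 ratio of 0.63 (0.38 to 0.88). That ratio was 0.53 under TMM scaling (trimmed mean of M values), 0.10 with the 4 subsets at equal weight and -1.72 with the αβ T cell level subtracted, so it was under 1.5-fold higher in the first pair and reversed under the last. The last value also carries the Vegfb change of the αβ T cells themselves, given below. In this contrast 7.25% of 6290 genes were lower in DB by 1.5-fold or more and 8.7% higher, with a median of 0.03, and the interval lay below 0 in 32.7%.

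**Figure D3:**
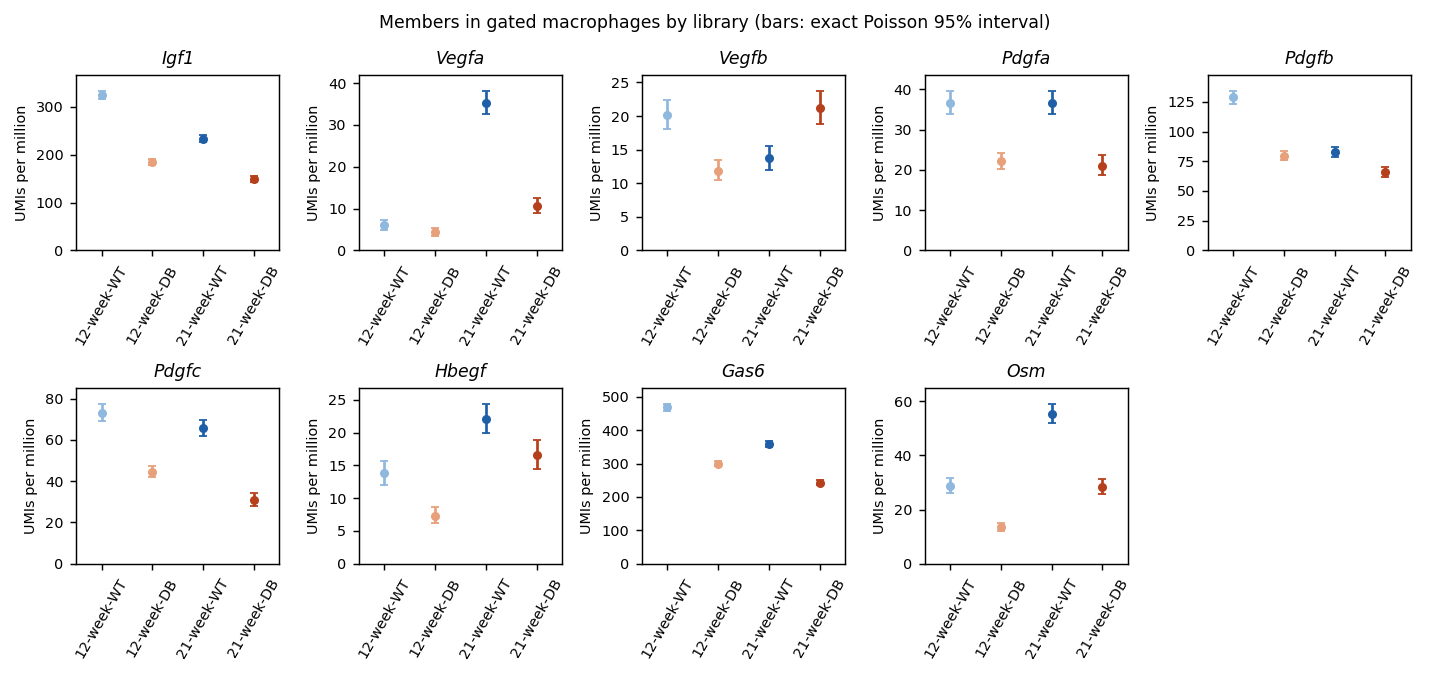
CPM of each member in gated macrophages (vertical axis, linear, from 0) of the 4 libraries (horizontal axis), with the exact Poisson 95% interval. At both ages the DB point lies below the WT point for every member except Vegfb at 21 weeks.

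**Figure D4:**
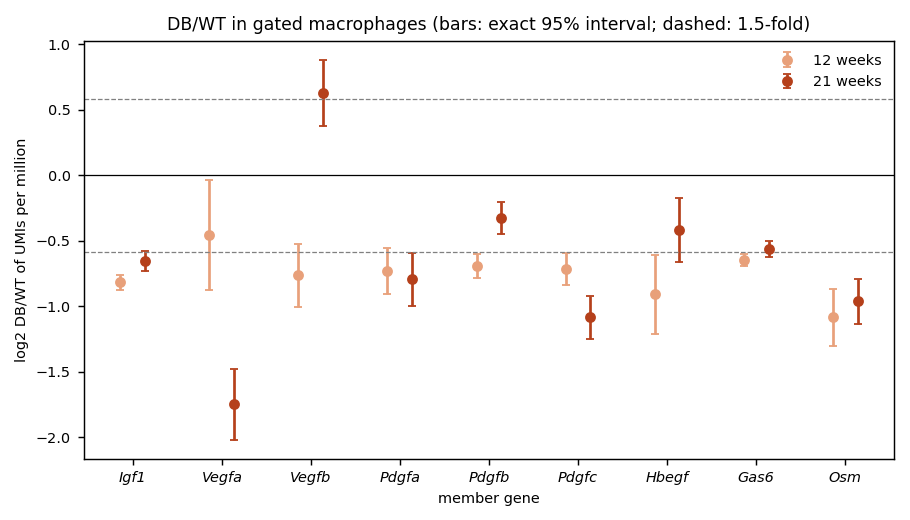
Log2 ratio of DB over WT CPM in macrophages (vertical axis) for each member (horizontal axis) at 12 and 21 weeks, with exact 95% intervals and dashed lines at 1.5-fold. The 12-week ratios lie between -1.09 and -0.45, and the 21-week ratios between -1.74 and 0.63, with only Vegfb above 0.

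Other measures moved between these libraries. In macrophages the 10 early response genes, which warm enzymatic digestion is known to induce, summed to 6589, 4091, 8175 and 7339 CPM, with no gene of the list at 0. The 9 hypoxia genes summed to 633, 662, 651 and 520 CPM. The 5 stromal markers summed to 32.5, 7.76, 12.3 and 4.71 CPM in macrophages, against 14706 to 63487 CPM in stromal barcodes, and Col1a1 and Lum were at 0 in 21-week-DB macrophages. Mast cell markers summed to 58.1, 22.4, 19.9 and 40.4 CPM, neutrophil markers to 79.1, 76.3, 58.9 and 151 CPM and monocyte markers to 567, 783, 571 and 367 CPM, with none of these 3 lists' genes at 0. Macrophage genes moved too. Adgre1 was at 321, 208, 252 and 149 CPM, Csf1r at 1055, 813, 897 and 729 CPM and C1qa at 3068, 1947, 2785 and 2662 CPM, while Pf4 was at 2980, 3561, 2148 and 2995 CPM. Adgre1 and Csf1r were thus lower in DB at both ages, as was C1qa, though at 21 weeks only slightly. Pf4 was higher in DB at both ages. The remaining macrophage markers were C1qb (2022, 1658, 2206 and 2364 CPM) and C1qc (2696, 1783, 2252 and 2337 CPM). Both were lower in DB at 12 weeks and higher in DB at 21 weeks. The 6 macrophage markers together summed to 12142, 9970, 10541 and 11235 CPM. The part of these measures in the genotype differences was not tested. Fewer MHCII-high macrophages were in 21-week-DB than in 21-week-WT, and with the 4 subsets given equal weight the 21-week ratio was -0.46 for Vegfa and 0.10 for Vegfb, while those of Igf1 and Gas6 were -0.65 and -1.19. The equal-weight Vegfa ratio leans on single barcodes. In 21-week-DB Lyve1+ MHCII-high macrophages all 16 Vegfa UMIs (77.3 CPM) came from 1 barcode.

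Within subsets most members were lower in DB at 12 weeks. At 12 weeks the interval lay below 0 for 7 of 9 members in Lyve1+ MHCII-high macrophages, 7 in Lyve1+ MHCII-low, 9 in Lyve1- MHCII-high and 7 in Lyve1- MHCII-low, and above 0 for none. In the same order it lay below 0 for 14.1%, 22.5%, 18.0% and 18.3% of all genes past the floor of 50 UMIs and 20 CPM. Of the members past that floor it lay below 0 for 5 of 7, 6 of 6, 7 of 7 and 7 of 7. At 21 weeks the counts below 0 were 4, 5, 5 and 7 of 9 members. Past the floor they were 4 of 7, 5 of 6, 5 of 7 and 7 of 8, beside 7.3%, 34.1%, 13.2% and 17.9% of genes. Over all 9 members, 2 intervals lay above 0. These were Pdgfb in Lyve1+ MHCII-high macrophages (0.82, 95% interval 0.20 to 1.40, from 27 DB UMIs) and Pdgfa in Lyve1- MHCII-high macrophages (0.86, 0.35 to 1.35). Igf1 and Gas6 were lower in DB in all 4 subsets at both ages, and the 12-week log2 ratio of Gas6 was -0.13 (-0.29 to 0.04) in the Lyve1+ MHCII-high subset and -1.80 (-2.02 to -1.59) in the Lyve1- MHCII-low subset.

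In most classes other than macrophages Pdgfb was lower in DB. Of the classes with 50 or more Pdgfb UMIs over both libraries, the interval lay below 0 in 6 of 8 at 12 weeks and in 5 of 6 at 21 weeks, and above 0 in none. At 12 weeks dermal γδ T cells had 47.0 CPM in WT and 15.1 in DB (log2 ratio -1.64, 95% interval -2.12 to -1.18), and 20.8 and 1.90 CPM at 21 weeks (-3.45, -4.32 to -2.68). ILC2 had 73.9 and 24.6 CPM at 12 weeks (-1.59, -1.95 to -1.22) and 20.6 and 4.30 CPM at 21 weeks (-2.26, -2.82 to -1.72). Genes lower in DB by 1.5-fold or more were 1.89% and 8.98% of those compared in dermal γδ T cells at 12 and 21 weeks, and 4.42% and 13.8% in ILC2. Hbegf in dermal γδ T cells was lower as well, at 23.5 and 13.7 CPM (-0.78, -1.33 to -0.23) and at 24.6 and 9.90 CPM (-1.31, -1.72 to -0.92).

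Outside macrophages, Osm at 12 weeks and Vegfa at both ages had no common direction. For Osm the interval lay below 0 in 4 of 8 classes and above 0 in 2 at 12 weeks. At 21 weeks it lay below 0 in 4 of 8 and above 0 in none. For Vegfa it lay below 0 in 3 of 10 classes and above 0 in 2 at 12 weeks. At 21 weeks these counts were 4 and 1 of 10. Neutrophils of 12-week-DB had 1197 CPM of Osm against 305 in 12-week-WT (log2 ratio 1.97, 1.69 to 2.26), while at 21 weeks they had 417 against 832 CPM (-0.99, -1.46 to -0.55). These sums came from 79 DB and 100 WT neutrophils at 12 weeks and 37 and 108 at 21 weeks. Osm was lower in DB monocytes and migratory dendritic cells at both ages. Vegfa in mast cells at 12 weeks was 187 CPM in WT and 168 in DB (-0.16, -0.54 to 0.22), and 358 and 136 CPM at 21 weeks (-1.40, -1.69 to -1.11). The mast cell markers of those barcodes summed to 101264 CPM in 21-week-WT (210 barcodes) and 57423 CPM in 21-week-DB (1245 barcodes), and the part of this in the Vegfa difference was not tested. Vegfb was compared at 21 weeks in the 5 classes with 50 or more UMIs over both libraries. It was higher in DB in mast cells, dermal γδ T cells and αβ T cells, while the interval held 0 in cDC2 and ILC2. In αβ T cells Vegfb was at 5.19 CPM in WT and 18.6 CPM in DB (1.84, 1.16 to 2.59). The αβ T values are the same ones that were subtracted above, so they are no independent support for the macrophage ratio.

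**Figure D5:**
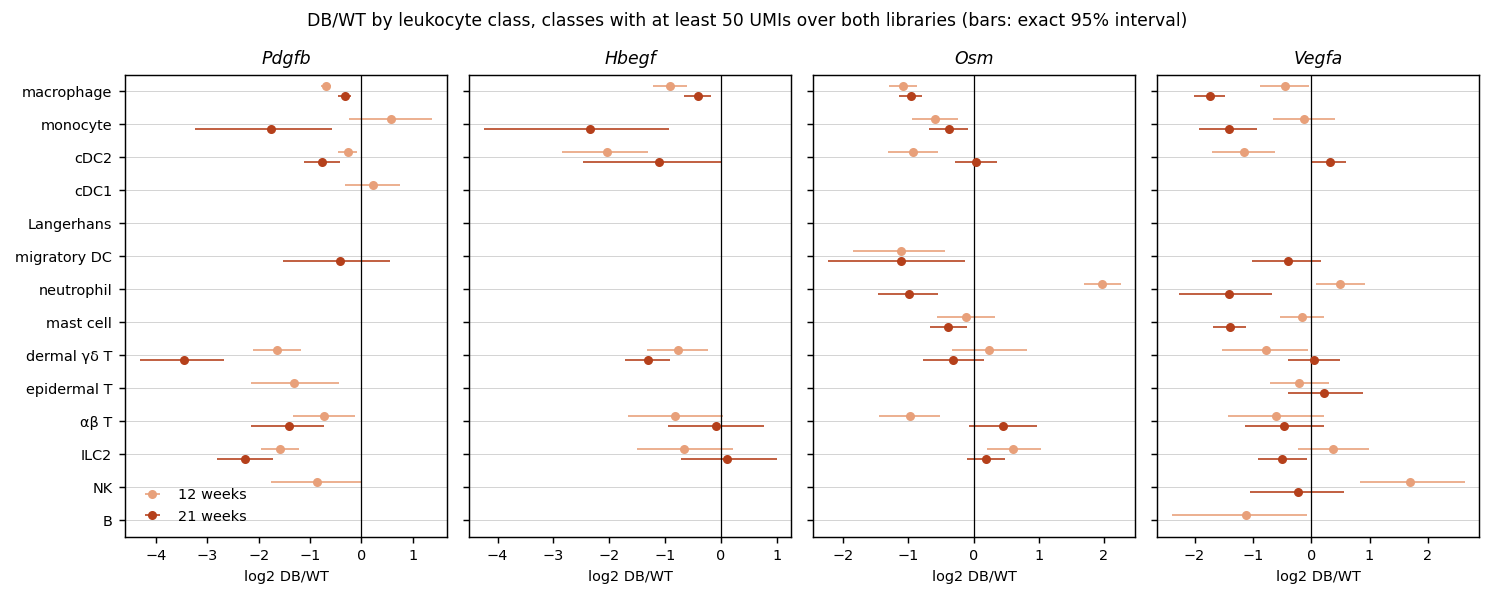
Log2 ratio of DB over WT CPM (horizontal axis) for Pdgfb, Hbegf, Osm and Vegfa in each leukocyte class (rows) with 50 or more UMIs over both libraries, at 12 and 21 weeks, with exact 95% intervals. The Pdgfb intervals lie below 0 in most classes, and the Osm point of 12-week neutrophils lies at 1.97.

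Age was compared within each genotype. It cannot be told apart from the processing run, since the deposited headers give Cell Ranger 5.0.0 in the 12-week pair and 6.0.0 in the 21-week pair. Igf1, Gas6, Pdgfb and Pdgfc were lower at 21 than at 12 weeks in WT (log2 ratios -0.48, -0.38, -0.64 and -0.15) and in DB (-0.31, -0.30, -0.28 and -0.52) macrophages, with each interval below 0. Osm was higher at 21 weeks in WT (0.95, 0.79 to 1.11) and in DB (1.07, 0.84 to 1.29), as were Hbegf (0.68 and 1.17) and Vegfa (2.55 and 1.26). Pdgfa did not differ beyond counting error in either genotype (-0.17 to 0.16 in WT, -0.29 to 0.15 in DB). Vegfb was lower at 21 weeks in WT (-0.56, -0.80 to -0.31) and higher in DB (0.83, 0.59 to 1.08). By 1.5-fold or more, 3 members were higher and 1 (Pdgfb) lower in WT, where 1.76% and 6.35% of genes were, and 4 were higher and none lower in DB, where 6.25% and 12.1% of genes were. Of those 4, Vegfa and Hbegf were under the floor that defines the DB shares, and Vegfb and Osm were past it. With the αβ T cell level subtracted, no member was higher by 1.5-fold or more in either genotype, of the 6 in WT and 5 in DB that kept a level above 0 in both libraries. Vegfa, Hbegf and Osm kept none, so the subtraction cannot speak to their age ratios. The median of all genes was -0.15 in WT and -0.14 in DB, and TMM scaling shifted the WT ratios by 0.16, which put Pdgfc at 0.01.

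By Pearson correlation of log2(CPM + 1) over 53 sums of 14 classes, whose values share libraries and depth, the genes most like Igf1 among 9185 were Lyve1 (r = 0.896) and C1qb (0.885), and those most like Gas6 were C1qb (0.906) and Serpinh1 (0.890). C1qb is among the genes that gated the macrophages, so its likeness to genes high in macrophages was partly fixed by the gates. Pdgfc was most like Slco2b1 (0.869) and Ccl12 (0.837). Vegfa was most like the glucose transporter gene Slc2a1 (0.823) and Rabgef1 (0.804), and Osm like Dusp1 (0.871) and Lilr4b (0.865). Pdgfb was most like Nptn and Capns1 (0.836 and 0.828), Vegfb like Zbtb4 and 2610301B20Rik (0.814 and 0.799), Pdgfa like Rgl1 and Capn5 (0.764 and 0.760) and Hbegf like Chmp1a and Nfic (0.709 and 0.703).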

How the data were processed

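Single-cell 3' RNA-seq libraries of CD45+ cells from collagenase-digested mouse hindpaws were analysed, 1 per condition. The authors made the deposited UMI counts, whole numbers per gene and barcode, with Cell Ranger (per the file headers 5.0.0 at 12 and 6.0.0 at 21 weeks) on mm10. The submitters' notes name 5.0.0 only, and the study's methods 6.0. The ambient RNA removal by decontX that the methods describe was not applied here, since the deposited values are whole counts.

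Barcodes under 200 genes or over 10% mitochondrial UMIs were dropped, and doublets were not called. Barcodes that met the gates of several classes were left out. Gates used marker genes at thresholds set after marker distributions were seen and without reading the 9 members. The members and lists were chosen with earlier results of these data known. Counts were summed per class and library (sums of at least 20 barcodes) and per macrophage subset and library (all 16 sums, 1 of them of 19 barcodes) and compared in edgeR (4.0.16, R 4.3.3) by the quasi-likelihood test with library as a block and Benjamini-Hochberg adjustment over all genes (threshold 0.05). Each SE given with an edgeR difference was derived from the test, as the size of the difference divided by the square root of F. Alternatives included DESeq2 (1.42.0). With 1 library per condition, DB and WT were compared without a test, by the log2 ratio of CPM with an exact 95% conditional binomial interval. Levels have exact Poisson intervals. Such intervals cover counting error only. Genes were named as the 9 members and those list genes with a mean of 20 CPM or more in a class, plus the 2 most correlated genes per member. The tests were tested on simulated data. Python 3.11.15 was used. Some listed items are not reported here by name.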

Additional observations from a re-analysis of the deposited data

Results flagged for a closer look

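Vegfb in macrophages had opposite DB/WT differences at the 2 ages. The log2 ratio was -0.76 at 12 weeks (20.2 CPM in WT, 11.9 CPM in DB) and 0.63 at 21 weeks (13.7 and 21.2 CPM), each with 1 library per condition. The difference between the ages was not tested. With the 4 subsets at equal weight the 21-week ratio was 0.10, and with the αβ T cell level of the same library subtracted it was -1.72. The latter also carries the Vegfb change of the αβ T cells themselves.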

How the results depend on the processing

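Members called higher (7) and lower (1) in macrophages did not change in number under any alternative, and 97 of 99 member values kept direction and side of the threshold. Osm turned positive with unintegrated clusters (0.52, adjusted p = 0.0545, edgeR) and ran from -0.47 to 0.040 as each library was left out, positive without 12-week-DB. DESeq2 called 4454 genes higher and 3835 lower, against 4909 and 2406. Leaving out each library in turn gave 4307 to 4935 genes higher and 1827 to 2112 lower.

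For Lyve1, the fit with no replicate block (library) called 324 genes higher and 177 lower (887 and 919 with it), with 0 members lower, not 4. Clusters called 1543 and 1509 genes and 4 members higher, not 2. Leaving out each library gave 473 to 779 genes higher, 424 to 826 lower and 2 to 4 members lower. Over the same fits Igf1 ran from -0.078 (without 12-week-DB) to 0.20 and Pdgfa from -0.48 to 0.030 (without 21-week-DB). For MHCII, the fit without the block called 498 and 481 genes (1283 and 1126 with it) and 0 members higher, not 2, and leaving out each library gave 756 to 1235 higher and 610 to 1037 lower. Pdgfb turned to 0.0052 in DESeq2 and 0.039 without the block, and Pdgfa to -0.031 with clusters and to -0.013 and -0.023 at H2-Ab1 thresholds of 1.5 and 2.5. With each library left out, Pdgfb ran from -0.091 to 0.025, Pdgfa from -0.0062 to 0.12 and Hbegf from -0.29 to 0.82, and none of the 3 was called. The libraries carry no paired replicates, so the block stands for the library.

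Of the 12-week DB/WT ratios 55 of 59 moved by less than the counting interval, and of the 21-week ratios 39 of 63. With the αβ T level subtracted, 5 of the 5 members with a value were lower by 1.5-fold at 12 weeks (8 of 9 without subtraction), and Vegfb turned to -1.72 at 21 weeks. Subtraction also removes what αβ T cells transcribe themselves, and members left without a value could not be counted in either direction. No member (0) was higher at 21 weeks under TMM scaling, subtraction or equal subset weights, against 1. With equal weights, 19 barcodes of 21-week-DB weigh as much as any other of its subsets. For WT age, 0 members were lower under TMM or subtraction and 2 at 5% mitochondrial UMIs, against 1, 0 were higher with subtraction, against 3, and Pdgfc turned to 0.0065 under TMM. For DB age, 2 members were higher with clusters and 0 with subtraction, against 4, 2 were lower at equal weights, against 0, and Pdgfb turned to 0.023 at equal weights. The causes were not tested. The comparison without shared barcodes was added after seeing the data.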
